A study of Homo sapiens
Mus musculus with 3 samples.

Results

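EL4, a T-cell lymphoma line of the mouse, accounted for 1392 of the 4360 wells kept from 3 single-cell libraries. Each library had been made on the ICELL8 cx, an instrument that dispenses cells into the nanowells of a chip, images them and tags the RNA of each well with a known barcode. Every library came from the same kind of suspension, in which EL4 was mixed in equal parts with IVA12, a mouse B-lineage hybridoma line, and with Jurkat and TALL-104, which are human T-cell leukemia lines. Of the libraries, 2 were prepared with the 3'DE protocol, which reads the 3' ends of transcripts, and are called 3'DE-1 and 3'DE-2 here, and 1 with the 3'DE-UMI protocol, in which the cDNA was cleaned and leftover primers were digested before amplification so that unique molecular identifiers (UMIs) could be counted. The labels name no treatment, and EL4 had been grown in serum-supplemented RPMI-1640 with 2-mercaptoethanol. Per the study's methods, 3'DE-1 came from cell mixture H, and both 3'DE-2 and 3'DE-UMI came from cell mixture I, so the replicates of 3'DE also differed in mixture and the protocol had 1 library of its own. EL4 is a single established line, so wells of a library are not replicates of a condition. Every test below was made on sums per library, and values over the wells of a library are a description.

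Wells were chosen from their own reads. A well was kept with at least 1000 reads and 200 genes, and it was called mouse when fewer than 10% of its reads fell on human genes. A mouse well was called EL4 when the summed reads of 5 T-cell genes reached 3 and were at least 3 times the summed reads of 5 B-cell genes, and IVA12 by the mirrored rule. The T-cell genes were Cd3e, Cd3d, Cd3g, Il7r and Lck, and the B-cell genes were Ms4a1, Cd79a, Cd79b, Mzb1 and Ckap4. The rule gave 466 EL4 wells in 3'DE-1, 493 in 3'DE-2 and 433 in 3'DE-UMI, and 440, 229 and 198 IVA12 wells. Another 16, 51 and 69 mouse wells met neither condition. Levels of these 10 genes are therefore a description of the choice and carry no test.

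T cells recognise antigen with the T-cell receptor, whose signal is passed into the cell through the CD3 chains. Cd3e, Cd3d and Cd3g encode the CD3 epsilon, delta and gamma chains, which pair with one another in the membrane. Lck is the Src-family kinase that phosphorylates the CD3 and zeta chains when the receptor is engaged, and Il7r encodes the alpha chain of the receptor for interleukin-7, a survival cytokine of lymphocytes. On the B-cell side, Ms4a1 encodes CD20, Cd79a and Cd79b encode the signalling chains of the B-cell receptor, Mzb1 encodes an endoplasmic reticulum protein that helps antibody assembly and Ckap4 a protein of the rough endoplasmic reticulum.

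Before the levels, 3 properties of the libraries bear on all of them. The tables summed to 35581264 reads for 3'DE-1, 109702878 for 3'DE-2 and 44883618 for 3'DE-UMI. Depth was uneven in 3'DE-2, where the deepest 10% of EL4 wells held 43.3% of the EL4 reads, against 16.8% in 3'DE-1 and 28.6% in 3'DE-UMI. 3'DE-2 also stood apart in foreign reads: the median EL4 well had 1.71% of its reads on human genes, against 0.460% and 0.406% in the others. Finally, the libraries shared well barcodes. Of 481 barcodes kept in both 3'DE libraries, 94 were EL4 in both, and a barcode that was EL4 in 3'DE-1 was EL4 in 3'DE-2 in 62.3% of cases, against 20.3% where it was kept but not EL4 in 3'DE-1. The same figures were 60.6% and 20.8% for 3'DE-1 with 3'DE-UMI, and 63.8% and 22.1% for 3'DE-2 with 3'DE-UMI. The expression profiles under a shared barcode were nevertheless close to unrelated after the mean EL4 profile was taken off, with a median Pearson r across genes of 0.0028, 0.0022 and 0.0103. Depth under a shared barcode had a Spearman rho of 0.647 over the 88 barcodes that were EL4 in both libraries of mixture I, and of 0.148 and 0.0218 over the 94 and 83 of the other pairs. Leaving out every well whose barcode was kept in more than 1 library left 218, 241 and 193 EL4 wells, and the main results are given below with and without the other wells.

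Among the T-cell genes of the rule, Cd3d had the highest level in EL4 wells. Levels are CPM, a gene's reads per 1000000 mouse reads of the summed wells. Cd3d stood at 1579 in 3'DE-1, 1831 in 3'DE-2 and 1455 in 3'DE-UMI. At least 1 Cd3d read was present in 99.6%, 98.6% and 91.0% of EL4 wells. Cd3g followed with 834, 974 and 873 CPM, in 97.6%, 93.3% and 72.7% of wells. Both genes were thus at a like summed level under either protocol while fewer wells held a read in 3'DE-UMI.

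Lck, Il7r and Cd3e were lower and spread more between libraries. Lck stood at 221, 121 and 272 CPM, with a read in 83.9%, 63.5% and 43.0% of EL4 wells. Il7r stood at 59.8 CPM in 3'DE-1 and at 144 and 146 CPM in 3'DE-2 and 3'DE-UMI, the pair made from mixture I. Cd3e was the weakest of the CD3 chains with 18.8, 25.6 and 45.3 CPM and a read in 23.8%, 33.5% and 29.8% of wells. These values are not scaled to transcript length, so the order of the genes is an order of 3' reads. Counted as UMIs in 3'DE-UMI, the order was the same, at 1036 per 1000000 UMIs for Cd3d, 501 for Cd3g, 197 for Lck, 119 for Il7r and 83.1 for Cd3e.

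**Figure D1:**
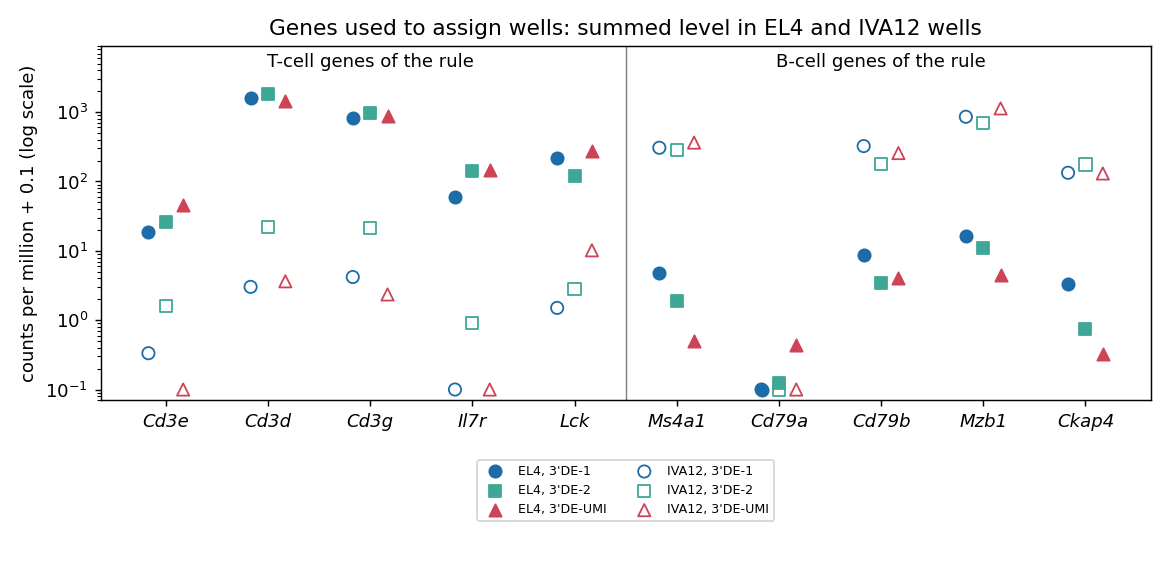
Level of the 10 genes of the rule in wells summed by line and library, in CPM with 0.1 added, on a log axis. Filled symbols are EL4 and open symbols IVA12, and 3'DE-2 has the highest IVA12 level of Cd3d, at 22.0 CPM, and of Cd3g, at 21.0.

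T-cell reads per EL4 well had a median of 71.5 in 3'DE-1, with quartiles of 50 and 102.75. In 3'DE-2 the median was 102 and the quartiles 40.0 and 317, and in 3'DE-UMI they were 82 and 35 to 160.0. Few wells lay at the edge of the rule: 2, 2 and 5 EL4 wells held exactly 3 T-cell reads, and 4, 2 and 4 wells with 2 T-cell reads would otherwise have passed. Reads from the B-cell genes were absent in 330, 293 and 407 EL4 wells. All 5 T-cell genes had a read in 9.23%, 15.2% and 4.85% of EL4 wells, whereas 0.429%, 3.45% and 15.0% were assigned on reads of 1 T-cell gene alone.

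The B-cell genes were low in EL4 wells, as the rule requires. Mzb1 was the highest, at 16.1, 11 and 4.32 CPM in EL4 wells against 857, 704 and 1131 CPM in IVA12 wells. Cd79b stood at 8.69, 3.34 and 3.98 CPM and Ms4a1 at 4.61, 1.79 and 0.398 CPM in EL4 wells. Cd79a could separate nothing, since it had no read in IVA12 wells of any library and at most 0.341 CPM in EL4 wells.

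T-cell reads in wells that should lack them set the background of these shares. In 3'DE-2, Cd3d had a read in 65.5% of IVA12 wells and in 52.5% of human wells, at median depths of 30543 reads in IVA12 wells, 34368 in human wells and 38112 in EL4 wells. In 3'DE-1 the shares were 4.09% and 4.50%, and in 3'DE-UMI 11.6% and 6.28%. The summed Cd3d level of IVA12 wells was 1.20% of the EL4 level in 3'DE-2, 0.185% in 3'DE-1 and 0.243% in 3'DE-UMI. The share of EL4 wells with a Cd3d read was above these in every library. The rule favours this order, since it asks for T-cell reads in EL4 wells and limits them in IVA12 wells. When wells were assigned without Cd3d, 448, 451 and 357 wells were EL4, and Cd3d stood in them at 1578, 1831 and 1440 CPM. In IVA12 wells assigned in this way, Cd3d stood at 10.12, 28.13 and 13.01 CPM, against 2.92, 22.03 and 3.54 CPM under the rule. The IVA12 levels given above, as percentages of the EL4 level, are thus lower than those found without Cd3d in the rule. For Cd3e in 3'DE-2, 33.5% of EL4 wells compared with 6.11% of IVA12 wells and 5.37% of human wells. The EL4 and IVA12 shares were the same when wells were assigned without Cd3e.

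The label was checked on genes and libraries that the assignment of a well did not use. Each well was compared with the summed EL4 and IVA12 profiles of the other libraries, over 2002 to 2137 genes without the 10 of the rule, as Pearson's r of log values. EL4 wells were nearer to EL4 in 465 of 466, 493 of 493 and 431 of 433 cases. Their median r with EL4 was 0.789, 0.718 and 0.597, and with IVA12 0.632, 0.574 and 0.493. All 867 IVA12 wells were nearer to IVA12. The single exception in 3'DE-1 had 1069 reads and 3 T-cell reads, and the pair of exceptions in 3'DE-UMI had a median of 13668.5 reads. Of the mouse wells left unassigned, 6 of 16, 5 of 51 and 38 of 69 were nearer to EL4.

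EL4 made up 28.5% of kept wells in 3'DE-1 (exact 95% binomial interval, 26.3 to 30.8), 34.4% in 3'DE-2 (32.0 to 37.0) and 33.5% in 3'DE-UMI (30.9 to 36.1). These intervals cover the counting of wells only. The 3'DE-UMI share lay between the shares of the 3'DE libraries, so no difference between protocols stood out from the spread between replicates. Among mouse wells the EL4 share was 50.5%, 63.8% and 61.9%, and the higher values were again those of mixture I. Without the wells of shared barcodes EL4 made up 25.5%, 33.8% and 31.8% of kept wells. With 2 libraries against 1, the smallest p-value of an exact permutation test is 0.33, and no test was run on these values.

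Sensitivity for EL4 transcripts was compared through the number of mouse genes with at least 1 read per well. The median EL4 well held 2979.5 genes at 28622.5 reads in 3'DE-1, 2614 genes at 38112 reads in 3'DE-2 and 1288 genes at 31694 reads in 3'DE-UMI. The quartiles were 2602.5 to 3261, 1839 to 3589 and 861 to 1757 genes. The 3'DE-UMI median thus lay below both 3'DE medians at a depth between theirs. The log2 difference from the mean of the 3'DE medians was -1.12, and the SD between the 3'DE libraries was 0.13. In wells whose barcode was kept in 1 library alone the medians were 2996.5, 2610 and 1321 genes.

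**Figure D2:**
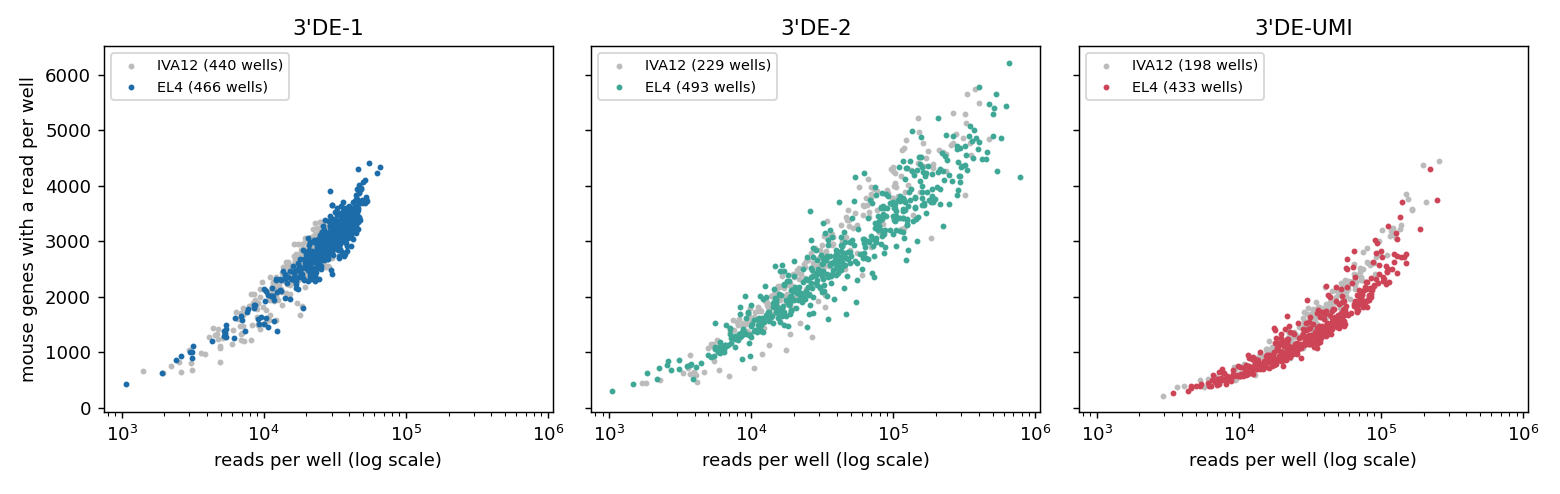
Mouse genes with a read (y axis) against reads (x axis, log scale) for each EL4 well in colour and each IVA12 well in grey, one panel per library. EL4 wells of 3'DE-2 span 1042 to 778387 reads and those of 3'DE-1 span 1069 to 65446, while EL4 wells of 3'DE-UMI reach fewer genes at the same depth.

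After each well was randomly thinned to 5000 reads, the median EL4 well held 1596, 1442 and 942 genes, from 457, 476 and 428 wells. The wells left out for shallower depth numbered 9, 17 and 5. The log2 difference from 3'DE was -0.69 at this depth and -0.43 at 2000 reads per well, so it was smaller at lower depth and kept its sign. At 5000 reads the IVA12 medians were 1590 and 1495 genes under 3'DE, close to those of EL4. In 3'DE-UMI the IVA12 median was 1158, above the EL4 median of 942, and the quartiles of both lines overlapped, at 714 to 1141.25 for EL4 and 904 to 1336 for IVA12. The median EL4 well of this library held 2807 UMIs, with 11.2 mouse reads per UMI, and the median IVA12 well held 3481.

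**Figure D3:**
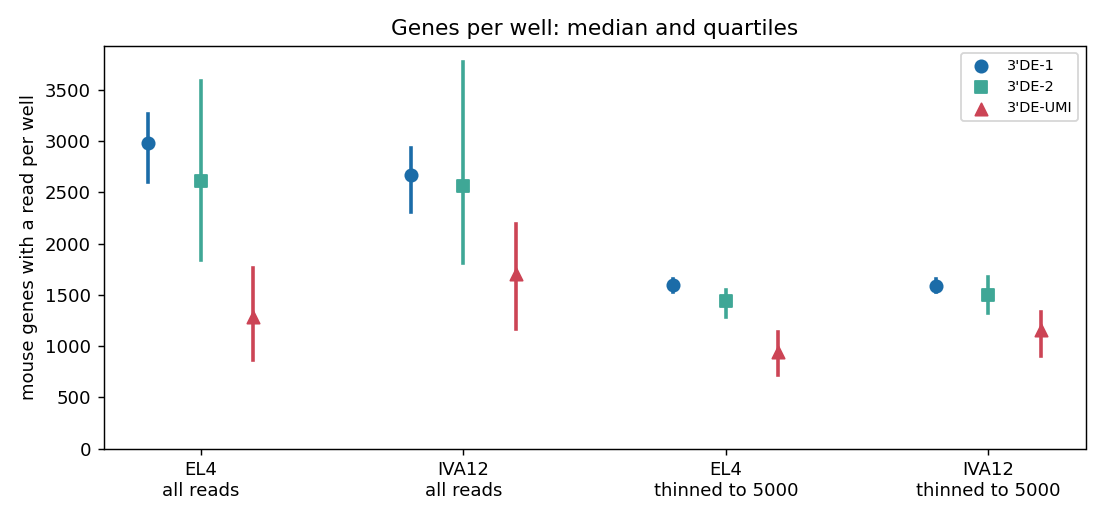
Median (symbol) and quartiles (bar) of the number of mouse genes with a read per well, by line and library, for all reads and after thinning to 5000 reads per well. 3'DE-UMI has the lowest median of each group, for EL4 1288 genes with all reads and 942 after thinning.

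Fewer genes were seen in most EL4 wells under 3'DE-UMI. At 5000 reads per well, 902 genes had a read in at least 50% of EL4 wells in 3'DE-1, 683 in 3'DE-2 and 348 in 3'DE-UMI. Genes with a read in at least 95% of EL4 wells numbered 190, 120 and 82, and 72 of them met this in every library. Of these 72 genes, 54 also met it in IVA12 wells. The 3'DE libraries had 116 such genes in common, of which 44 were not among those of 3'DE-UMI.

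EL4 wells also varied among themselves. At equal depth the ratio of a gene's variance to its mean over EL4 wells, which is 1 for pure counting noise, had a median of 1.66, 2.68 and 5.29 across 6256, 6924 and 6766 genes. Reads are copies made by amplification, so this ratio also holds the spread of copies per molecule. The 100 genes with the highest ratio overlapped by 16 between the 3'DE libraries, 6 between 3'DE-1 and 3'DE-UMI and 5 between 3'DE-2 and 3'DE-UMI. Each list of 100 was drawn from the 6256, 6924 and 6766 genes. The ratio was not adjusted for a gene's mean level, so the lists can favour abundant genes, and the overlap due to abundance was not tested. The lists had 2 genes in common in all libraries, both of them abundant. ENSMUSG00000092341 had ratios of 55.9, 44.8 and 62.1 at means of 52.3, 82.1 and 63.4 reads per thinned well. ENSMUSG00000064370 had ratios of 18.4, 27.5 and 16.3 at means of 31.1, 54.5 and 50.3. Both had a read in at least 99.5% of EL4 wells of each library, so it was their level and not their presence that varied. The tables give Ensembl identifiers alone, and identifiers are left unnamed here.

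The 3'DE libraries agreed closely on the summed EL4 profile. Across 2928 genes with at least 50 CPM in either, Pearson's r of log2(CPM + 1) was 0.950, and 4.20% of genes differed by at least 2-fold. Against 3'DE-UMI the r was 0.741 for 3'DE-1 over 3294 genes and 0.769 for 3'DE-2 over 3338 genes, and 38.3% and 32.1% of genes differed by at least 2-fold. In IVA12 wells the last pair of figures was 28.4% and 16.1%, and 7.93% of genes differed between the 3'DE libraries. 3'DE-2 and 3'DE-UMI share mixture I, and the 3'DE libraries came from different mixtures. With 1 3'DE-UMI library, the protocol cannot be told apart from other properties of that library, and no cause of these differences was tested.

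The difference of 3'DE-UMI from 3'DE was tested on the sums of EL4 wells, 2 against 1, with edgeR's quasi-likelihood test and Benjamini-Hochberg adjustment. In this comparison the protocol cannot be told apart from the lone library made with it. Of 11752 genes tested, 1515 passed an adjusted p of 0.05, or 12.9% of those tested, with 568 higher (4.83%) and 947 lower (8.06%) in 3'DE-UMI. Large changes among the genes that passed were mostly losses: 443 genes were at least 4-fold lower and 138 at least 4-fold higher. Over all genes with at least 50 CPM in either library of a pair, 2-fold differences were more even. Against 3'DE-1, 643 genes were at least 2-fold higher and 617 lower in 3'DE-UMI, and against 3'DE-2 475 were higher and 597 lower. The median log2 change of all genes tested was -0.05. At an adjusted p of 1e-04, 7 genes passed and all were lower. Without the wells of shared barcodes 1606 genes passed, of which 1170 were among the 1515. With UMI counts in place of reads for 3'DE-UMI 1092 genes passed, of which 721 were among the 1515, 715 of them in the same direction. The fit had 1 residual degree of freedom and took the spread of the lone 3'DE-UMI library to be that of the 3'DE libraries.

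Among the genes that passed, reached at least 50 CPM under 1 of the protocols and had their 3'DE-UMI value outside both 3'DE values, ENSMUSG00000049422 had the largest fall. It stood at 339 and 351 CPM in the EL4 wells of the 3'DE libraries and at 4.89 CPM in 3'DE-UMI, a log2 change of -6.27 ± 0.47 (SE, edgeR adjusted p = 1.15e-06). ENSMUSG00000020477 fell from 532 and 395 CPM to 8.69 CPM, a log2 change of -5.87 ± 0.48 (edgeR adjusted p = 2.04e-06). Both 3'DE values lay far above the 3'DE-UMI value, and the reads behind the latter were 86 and 153. Within mixture I alone, the log2 differences were -6.15 and -5.49, from 1 library against 1 and without a test. With UMI counts for 3'DE-UMI they were -4.92 and -5.01. ENSMUSG00000049422 was lower in IVA12 wells too, at 101 and 142 CPM under 3'DE and 5.25 CPM under 3'DE-UMI.

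Among the genes that rose, and under the same limits, ENSMUSG00000003779 had the largest change. It stood at 6.20 and 7.67 CPM under 3'DE and at 53.3 CPM under 3'DE-UMI, a log2 change of 2.81 ± 0.44 (SE, edgeR adjusted p = 6.91e-04). ENSMUSG00000063108 rose from 6.12 and 8.34 CPM to 51.1 CPM, by 2.69 ± 0.44 on the log2 scale (edgeR adjusted p = 9.62e-04). Within mixture I the differences were 2.79 and 2.60, again without a test.

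**Figure D4:**
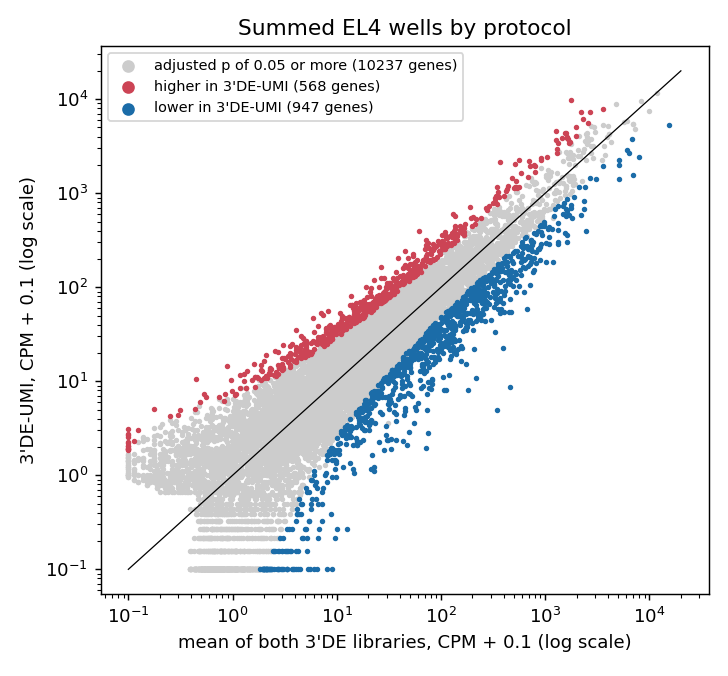
Summed EL4 wells, with the mean of both 3'DE libraries on the x axis and 3'DE-UMI on the y axis, each gene in CPM with 0.1 added, on log axes; the line marks equal values. Red marks the 568 genes higher and blue the 947 genes lower in 3'DE-UMI at an edgeR adjusted p under 0.05.

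Whether 3'DE-UMI differed from 3'DE alike in both lines was asked with an interaction term over the 6 sums of EL4 and IVA12 wells. The difference between protocols was unequal in EL4 and IVA12 wells for 311 of 13190 genes (edgeR adjusted p of 0.05), or 2.36% of those tested. Of these, 135 (1.02%) had the higher protocol difference in EL4 and 176 (1.33%) the lower. This count did not hold under every setting: with UMI counts in place of reads for 3'DE-UMI 7 genes passed, with DESeq2 36 and with wells thinned to at most 5000 reads 140. Without the wells of shared barcodes 237 passed, of which 100 were among the 311. The fit again had 1 residual degree of freedom.

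ENSMUSG00000020477, which fell in EL4 wells as described, stood at 609, 417 and 76.4 CPM in IVA12 wells. Its fall was larger in EL4 wells, with a log2 difference of -2.90 ± 0.39 (SE, edgeR adjusted p = 5.71e-10), and with UMI counts the adjusted p was 0.054. ENSMUSG00000031807 went from 209 and 226 CPM to 10.6 CPM in EL4 wells and from 137 and 175 CPM to 45.1 CPM in IVA12 wells, a difference of -2.47 ± 0.41 (edgeR adjusted p = 3.46e-06, and 0.63 with UMI counts). Both genes had lower values under 3'DE-UMI in each line, and the lowest in EL4.

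In the other direction, ENSMUSG00000028656 stood in EL4 wells at 7.10 and 9.06 CPM under 3'DE and at 55.2 CPM under 3'DE-UMI, while IVA12 wells stood at 87.9, 200 and 82.3 CPM. The protocol difference was higher in EL4 by 3.59 ± 0.47 on the log2 scale (SE, edgeR adjusted p = 3.72e-10), and it passed under every alternative tried. ENSMUSG00000020644 stood at 109, 176 and 281 CPM in EL4 wells and at 3.74, 6.74 and 0.536 CPM in IVA12 wells, a difference of 4.33 ± 0.64 (edgeR adjusted p = 4.53e-08). The last IVA12 value rests on 5 reads, and the adjusted p was 0.20 with thinned wells and 1.0 with UMI counts.

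**Figure D5:**
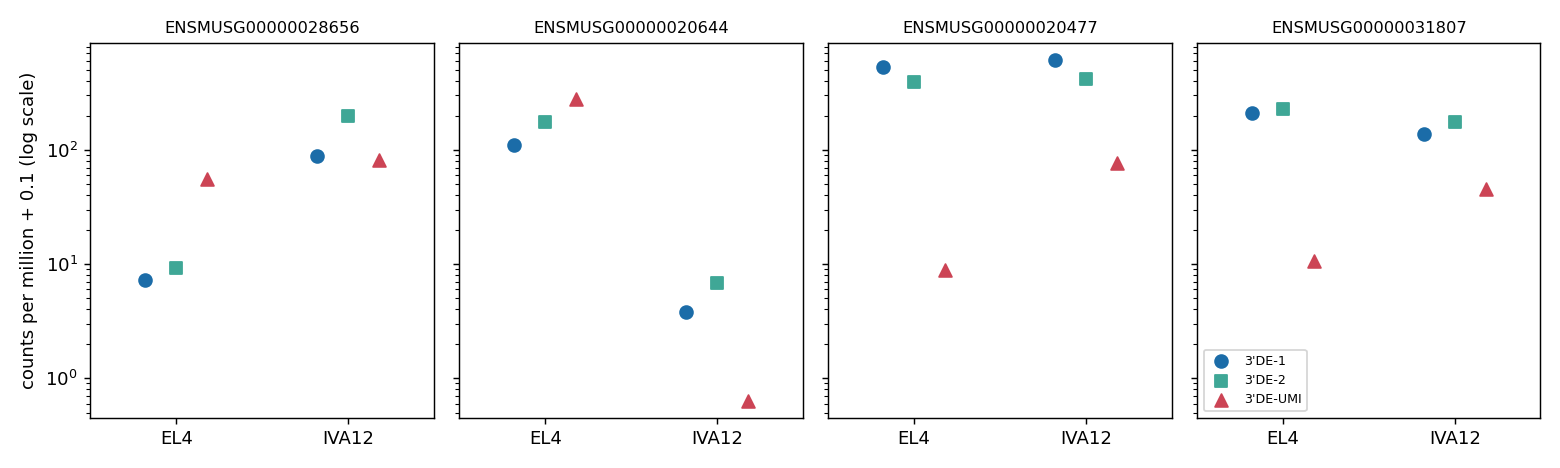
Summed level in EL4 and IVA12 wells, in CPM with 0.1 added on a log axis, for the 4 genes named for an unequal protocol difference; symbols mark the libraries. For ENSMUSG00000028656 the 3'DE-UMI symbol lies above both 3'DE symbols in EL4 wells, and below both in IVA12 wells.

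The genes that set EL4 apart from IVA12 are described last, since the wells were divided by T-cell and B-cell reads and the rest of their transcriptome belongs to the same contrast. With the 10 genes of the rule left out and the library as a block, 4655 of 12040 genes passed an adjusted p of 0.05 in edgeR, or 38.7% of those tested, 2391 higher (19.9%) and 2264 lower (18.8%) in EL4. By the fitted change, 1216 were at least 4-fold higher in EL4 and 1188 at least 4-fold lower. Without the wells of shared barcodes 3322 genes passed, of which 3203 were among the 4655. These counts describe the division of wells and are not read as evidence for it.

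Among genes with a fitted log2 change of at least 2, ENSMUSG00000008668 and ENSMUSG00000060802 had the highest mean level in EL4 wells. The first had a fitted log2 change of 2.14, and of 1.79 with UMI counts for 3'DE-UMI. It stood at 5780, 5653 and 5714 CPM in EL4 wells and at 1801, 1299 and 1514 CPM in IVA12 wells, and hardly moved between libraries. The second stood at 1195, 4207 and 7313 CPM in EL4 wells and at 303, 537 and 672 CPM in IVA12 wells, with 3'DE-1 low in both lines. Abundant in IVA12 and low in EL4 were ENSMUSG00000020184, at 110, 85.1 and 108 CPM in EL4 wells against 3592, 3639 and 4015 CPM, and ENSMUSG00000067149, at 40.7, 49.6 and 20.9 CPM against 2132, 3375 and 4471 CPM.

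Few genes were near absence in IVA12. Of 5547 genes with at least 10 CPM in EL4 wells of every library, 29 had at most 3 reads in the IVA12 wells of each. Taken by library, such genes numbered 181 of 6164 in 3'DE-1, 84 of 6656 in 3'DE-2 and 272 of 6679 in 3'DE-UMI. The lowest number was in 3'DE-2, the library with most foreign reads. 3'DE-2 also had the largest IVA12 sum, at 14843420 mouse reads against 8557031 in 3'DE-1 and 9331513 in 3'DE-UMI. The limit of 3 reads was not scaled to depth, and the parts of depth and of foreign reads were not tested. The highest of the 29 in mean EL4 level was ENSMUSG00000035783, with 117, 41.4 and 49.7 CPM in EL4 wells and 0, 2 and 1 reads in IVA12 wells.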

How the data were processed

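Single-cell RNA-seq had been run on 3 ICELL8 cx libraries, 2 of the 3'DE protocol and 1 of the 3'DE-UMI protocol. Groups and replicate numbers came from the titles in the labels. The authors deposited raw counts of reads, by gene and well barcode, for each library, with no scaling, and UMI counts for 3'DE-UMI. Per the methods, read tables came from mappa with STAR and UMI counts from the Drop-seq tools, against hg19 and mm10 joined as 1 reference. The submitters' processing notes name STAR 2.7.0b, STAR 2.4.2a and Cell Ranger 1.2.0. Reads had been downsampled by the authors in the study, and whether the deposited tables hold downsampled reads is not given in the sources used here. Total counts ranged from 35581264 to 109702878 reads per library, and intervals cover counting error only, since reads are copies and not independent molecules.

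Species was read from the gene prefix. Members, gene lists and tests were chosen with earlier results of these data known. Wells were assigned by the reads of 10 genes, paired with symbols by the rule itself. The tables give Ensembl identifiers without symbols or coordinates, and no reference used here paired them, so 23 lists of pathway and marker genes with 476 entries could not be applied, and no more than 2 identifiers that rose and 2 that fell are printed per comparison. The identifiers named are, for EL4 against IVA12, the most abundant among genes past the threshold with a log2 change of at least 2 and 1 direction in every library, for the protocols the largest changes with at least 50 CPM and no overlap, and for the interaction the lowest p-values with at least 50 CPM in EL4 wells.

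Reads were summed per library and line over mouse genes and fitted in edgeR 4.0.16 (filterByExpr, TMM factors, two-sided quasi-likelihood F-test, Benjamini-Hochberg adjustment, threshold 0.05). The comparison of lines and the interaction had 6 sums with the library as a block, and the protocol comparison had 3 sums. The 10 genes of the rule were left out of the tests of both lines, and the T-cell genes out of the protocol test, and library sizes kept them. SE is the log2 change divided by the root of F. The labels do not say that libraries came from separate cultures, so the spread between these libraries may be technical. In the protocol and interaction fits the lone 3'DE-UMI library gave no estimate of its own spread. With 1 residual degree of freedom, the p-values of these fits rest largely on a spread estimated across genes. For genes per well at equal depth, wells were thinned without replacement to 5000 or 2000 reads and shallower wells left out. Doublets were not called. The wells had been imaged for single cells per the methods. The study still reported multiplets under both protocols, estimated from barcodes with human and mouse transcripts. Wells with 10% or more human reads were not called mouse. Doublets of EL4 and IVA12 could fall among the unassigned wells where both sums are high. Both sums reached 3 in 8, 11 and 10 unassigned wells of 3'DE-1, 3'DE-2 and 3'DE-UMI. Such doublets could also stay among the EL4 wells, which held up to 16, 44 and 45 B-cell reads in these libraries. Phase calls used cyclone in scran 1.30.0 with its mouse gene pairs. Alternatives were DESeq2 1.42.0, RLE factors, no filter on low counts, stricter assignment, depth and human-read limits, thinned wells, UMI counts and leaving out libraries, and, added after seeing the data, wells whose barcode was kept in 1 library and assignment without each gene of the rule in turn.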

Additional observations from a re-analysis of the deposited data

Results flagged for a closer look

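The protocol difference was unequal in EL4 and IVA12 wells for 311 genes by the interaction term in edgeR. The log2 differences of the 4 named genes were 3.59 for ENSMUSG00000028656, 4.33 for ENSMUSG00000020644, -2.90 for ENSMUSG00000020477 and -2.47 for ENSMUSG00000031807. With UMI counts for 3'DE-UMI 7 genes passed, and ENSMUSG00000028656 was the only named gene still past the threshold.

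EL4 wells held reads on human genes, which no comparison used. They made up 0.461% of all reads of EL4 wells in 3'DE-1, 1.6% in 3'DE-2 and 0.427% in 3'DE-UMI, or 61269, 653575 and 75545 reads, far above the 3 reads that a count of 0 allows. Human reads up to 10% of a well were permitted by the choice of wells. In their makeup, human reads of EL4 wells had a Pearson r of 0.706, 0.877 and 0.630 with those of human wells, across 17030, 17864 and 15060 genes on a log2 scale. Among the human genes, ENSG00000074370 and ENSG00000142949 were over-represented at least 10 times in EL4 wells of every library against human wells. ENSG00000074370 had 1910, 607 and 1218 per 1000000 human reads in EL4 wells, and 10.3, 7.92 and 3.77 in human wells. It stood at 3222, 2354 and 2445 per 1000000 human reads in IVA12 wells.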

How the results depend on the processing

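The comparison of EL4 with IVA12 called 4655 genes, 547 at an adjusted p of 1e-04 and 2957 with no replicate block, of which 2896 were among the 4655. Leaving out each library gave 2922 to 5076. The 3'DE-UMI comparison called 1515 genes and 7 at an adjusted p of 1e-04, and the other alternatives gave 1092, with UMI counts and 721 of the 1515 among them, to 1903. The interaction called 311 genes, and 36 with DESeq2. With wells thinned to at most 5000 reads it called 140, of which 58 were among the 311. With UMI counts it called 7, of which 1 was among the 311. The causes of these lower counts were not tested. Genes per well differed between protocols by -1.12 on the log2 scale, by -0.69 after thinning to 5000 reads, by -0.43 after thinning to 2000, and by -1.21 to -1.02 without 1 of the 3'DE libraries. The EL4 share differed by 2.02 percentage points, and by -0.94 without 3'DE-1 and 4.99 without 3'DE-2, so its sign rests on 3'DE-1. No named gene changed direction. Of the 3'DE libraries, only 3'DE-2 shared its cell mixture with 3'DE-UMI, so no paired test of the protocols was possible. Replicate numbers pair no samples across protocols. In the comparison of lines, EL4 and IVA12 sums were matched by library as a block.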

Other observations

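Cell cycle phases were called with cyclone, which scores pairs of marker genes, on wells thinned to 5000 reads. EL4 wells were called G1 in 61.3% of 457 wells of 3'DE-1 (exact 95% binomial interval, 56.6 to 65.8), 73.7% of 476 wells of 3'DE-2 (69.5 to 77.6) and 54.9% of 428 wells of 3'DE-UMI (50.1 to 59.7). G2M calls made up 16.6%, 12.2% and 24.3% of EL4 wells, and 13.8%, 18.6% and 21.5% of IVA12 wells. The spread between the 3'DE libraries was about as wide as the gap to 3'DE-UMI for the G1 share. For the G2M share of EL4 wells it was narrower, with 24.3% in 3'DE-UMI above 16.6% and 12.2%. The intervals cover counting error only, and reads from other wells enter these calls, so no cycling is read from them.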
